A study of Mus musculus with 24 samples.

Results

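Oligodendrocyte (OL) translatomes of injured mouse spinal cord at 10 days post-injury (dpi 10) were compared with those at dpi 2, to ask which acute changes had resolved and which had begun between these days. The comparison used the 3 OL libraries labelled dpi 10 and the 3 labelled dpi 2, 6 of the 24 libraries in the series, and their levels were read against 3 OL libraries of naive cord. The OL-Ribotag mice, labelled plp-cre;rpl22HA, carried a tamoxifen-inducible Cre under the Plp promoter, which makes OLs express an HA-tagged ribosomal protein, and RNA bound to the tagged ribosomes was precipitated with an antibody to HA. All groups carried these alleles and, by the study's methods, were given tamoxifen. Each library came from a pool of 2 female mice, and each injured mouse received a 50 kdyn contusion at T9. The labels give an age of 10 to 12 weeks at injury, while the study's methods give a younger range. By those methods naive cord was collected together with that of dpi 42, from mice that were older and longer past tamoxifen. Age, time since tamoxifen and injury therefore cannot be told apart where levels are set against naive. Total RNA of the same 9 pools gave a second library for each pool. The Plp promoter is also active in Schwann cells, and the precipitate held RNA of cells that do not carry the tag, as the marker levels below show. In bulk libraries such as these, fewer cells of a type and less RNA per cell cannot be told apart.

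OLs wrap central axons in myelin, a membrane with a high content of cholesterol that they largely make themselves through the mevalonate pathway. Enzymes of that pathway are induced by SREBP transcription factors when membrane sterol is low, and export of sterol is induced when it is high. Making large amounts of membrane protein also loads the endoplasmic reticulum (ER), and OLs are known for their sensitivity to ER stress and to the integrated stress response, in which the transcription factor ATF4 induces genes of amino acid supply.

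Library totals were 29075211 to 30743509 counts for OL dpi 2 and 30694911 to 31655773 for OL dpi 10, and 3 counts corresponded to 0.113 to 0.121 CPM (counts scaled to library size). Both libraries of dpi 2 pool 2 held counts on Y-linked genes, 2414 in the OL and 2604 in the total RNA library, against at most 13 in each of the 16 others, although all mice were described as female. Without that OL library 699 genes were called higher and 561 lower on dpi 10, of which 540 and 434 were among those called with it, and 30 of the 31 genes picked by size and p were still called. The 24 genes of myelin and mature OLs marked the precipitate in each group. All 24 were OL enriched on both days, with a median OL level 2.75 log2 units above total RNA on dpi 2 and 2.83 on dpi 10. The summed level of 14 neuron markers in OL libraries was 1176 to 1417 CPM on dpi 2 and 688 to 798 CPM on dpi 10. Summed levels of 8 astrocyte markers were 2561, 951 and 7708 CPM on dpi 2 and 2046, 6268 and 2532 CPM on dpi 10, so they varied between pools of a day as much as between days. The 11 Schwann cell markers summed to 295 to 804 CPM on dpi 2 and 962 to 1666 CPM on dpi 10. Naive OL library 3 stood apart from the other 2 naive ones, with 8561 CPM on the astrocyte markers for 1312 and 1469 CPM, 708 CPM on the Schwann cell markers for 75.5 and 76.5 CPM, and 147058 CPM on the myelin genes for 196015 and 198822 CPM. The part of these cells in the results below was not tested except where a value is given.

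Of 16966 genes tested, 785 were higher on dpi 10 than on dpi 2 (4.63%) and 540 were lower (3.18%), each by over 1 log2 unit with an adjusted p under 0.05 in edgeR's quasi-likelihood test. The median log2 fold change was 1.71 among the higher and -1.44 among the lower genes. The 3 libraries of one day lay apart from those of the other for 683 of the 785 and 476 of the 540 genes, while this held for 31.3% of all tested genes. OL enriched genes, which exceeded total RNA by over 0.5 log2 units on the day of their higher level, made up 206 of the higher and 134 of the lower genes. These were 26.2% and 24.8%, and of all tested genes 21.6% were OL enriched on dpi 10 and 20.9% on dpi 2. Genes depleted from OL RNA made up 305 (38.9%) and 166 (30.7%), where 28.2% and 28.4% of all tested genes were. The balance of directions depended on the libraries fitted, because a fit of the 6 compared libraries alone called 373 higher and 416 lower.

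Most called changes ran towards the naive level. On dpi 2, 1775 genes had been called up (10.5% of those tested) and 1188 down (7.0%) against naive, and on dpi 10 the counts were 1203 (7.09%) and 242 (1.43%). Of the genes up on dpi 2, 415 were called lower on dpi 10 (23.4%), and 294 of these were no longer called up. Of the genes down on dpi 2, 388 were called higher on dpi 10 (32.7%), and 378 of these were no longer called down. The count of 388 was 634 without OL dpi 2 library 3. Of 280 genes called up against naive on dpi 10 and not on dpi 2, 139 were also called higher than on dpi 2 and are termed late rises. Of these 139, 11 were OL enriched (7.91%) and 82 OL depleted (59.0%). Of 118 genes called down on dpi 10 and not on dpi 2, 50 were also called lower than on dpi 2 and are termed late falls, of which 15 were OL enriched. Late rises numbered 41 and late falls 17 with the 9 OL libraries alone, and late falls 31 without OL dpi 10 library 1. Without naive library 3 the acute rises called lower numbered 474, the acute falls called higher 391, the late rises 150 and the late falls 35. The classes overlapped, as 5 late rises were also among the 388 genes and 3 late falls among the 415. A late call marks a threshold passed on dpi 10 and does not show that the change began after dpi 2. These contrasts share libraries, so the counts describe the calls and are no test.

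**Figure D1:**
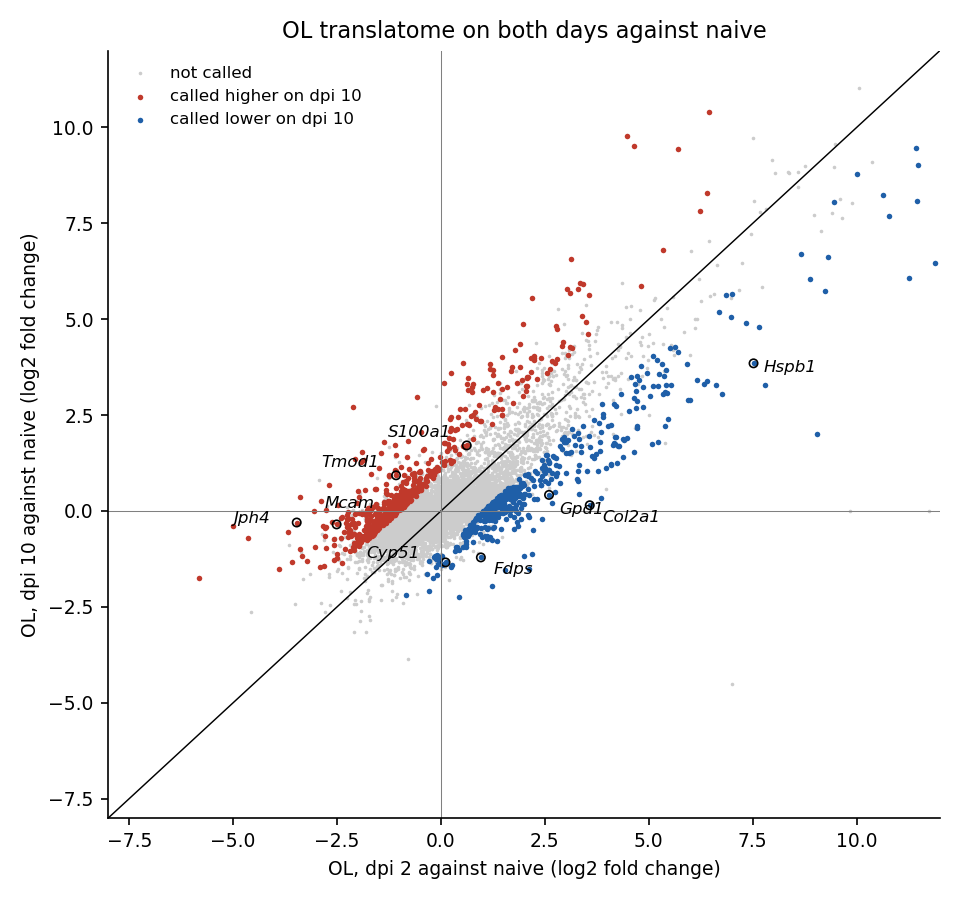
Log2 fold change of OL libraries against naive on dpi 2 (horizontal axis) and dpi 10 (vertical axis) for 12567 genes with a mean of at least 1 CPM, where each point is a gene, 3 genes lie outside the axes and the diagonal marks equal change. The 535 plotted genes called higher on dpi 10 lie above the diagonal and the 461 called lower lie below it, with Jph4 at the left returning to near 0, Col2a1 at the right returning to near 0, and Cyp51 near 0 on dpi 2 and below 0 on dpi 10.

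The 12 OL enriched genes with the smallest p among those higher on dpi 10 were low on dpi 2 and ended near, under or above naive. They were picked among genes whose dpi 2 and dpi 10 libraries did not overlap. Jph4 encodes a junctophilin, which ties the plasma membrane to the ER. Its level was 302, 334 and 180 CPM in naive, 24.4, 16.1 and 33.2 CPM on dpi 2, and 233, 205 and 222 CPM on dpi 10. All 3 dpi 10 libraries lay far above those of dpi 2, above naive library 3 and under the other 2 naive libraries, a log2 fold change of 3.16 ± 0.24 (SE, n = 3 and 3, adjusted p = 2.5e-07 in edgeR), or 8.95-fold. Mcam, a cell adhesion molecule of the immunoglobulin family, measured 26.2, 23.5 and 39.2 CPM on dpi 2 and 143, 124 and 132 CPM on dpi 10. It was 4.49-fold higher on dpi 10 (log2 2.17 ± 0.15 SE, adjusted p = 1.6e-07) without reaching the lowest naive library at 161 CPM. Clmn encodes calmin, a membrane protein with an actin-binding domain. It rose from 62.7, 62.1 and 48.5 CPM to 316, 231 and 258 CPM, a 4.64-fold difference (log2 2.22 ± 0.15 SE, adjusted p = 1e-07), and its naive libraries stood at 325, 332 and 260 CPM.

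Tmod1, which caps the slow-growing ends of actin filaments, went past its naive level. The naive libraries held 202, 239 and 217 CPM, the dpi 2 libraries 106, 87.4 and 118 CPM, and the dpi 10 libraries 462, 394 and 398 CPM. Each dpi 10 library lay above each naive one, and the difference from dpi 2 was 4.03-fold (log2 2.01 ± 0.11 SE, adjusted p = 3e-08). Its relative Tmod2 moved the other way, from 629, 731 and 534 CPM on dpi 2 to 268, 261 and 237 CPM on dpi 10, with naive at 481 to 489 CPM. Tmod2 was therefore lower on dpi 10 than in either other group, by 2.47-fold against dpi 2 (log2 -1.31 ± 0.10 SE, adjusted p = 1.8e-07). Add3, an adducin that joins spectrin to actin, also fell, from 879, 1108 and 732 CPM to 262, 240 and 219 CPM, or 3.77-fold.

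Hcn2, a cation channel opened by hyperpolarization, was the most abundant of these 12 genes. It measured 1290, 1237 and 1328 CPM on dpi 2 and 3592, 3066 and 3055 CPM on dpi 10, with naive libraries between 2560 and 3040 CPM, and was 2.52-fold higher on dpi 10 (log2 1.33 ± 0.11 SE, adjusted p = 6e-07). Usp30, a deubiquitinase of the outer mitochondrial membrane that opposes mitophagy, rose to 176, 140 and 156 CPM from 55.3, 40.9 and 38.4 CPM (log2 1.81) and stayed under its naive range of 184 to 221 CPM. Prickle1, a planar cell polarity protein, rose 3.76-fold. Olfml1, Tmem132b, Bcl7a and Fnbp1 rose between 2.32-fold and 3.25-fold. Fnbp1, a membrane-bending F-BAR protein, kept a level of 1092 to 1350 CPM against 1600 to 1906 CPM in naive. The transcription factor Arnt2 rose 2.07-fold but lost its call in 4 of the alternatives run, the one without OL dpi 2 library 2 among them, because its change then fell under 1 log2 unit. In the immediate early list, Arc, known from synapses, was likewise low on dpi 2 at 49.2, 26.4 and 34.4 CPM and rose to 105, 135 and 118 CPM, against 146 to 237 CPM in naive.

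**Figure D2:**
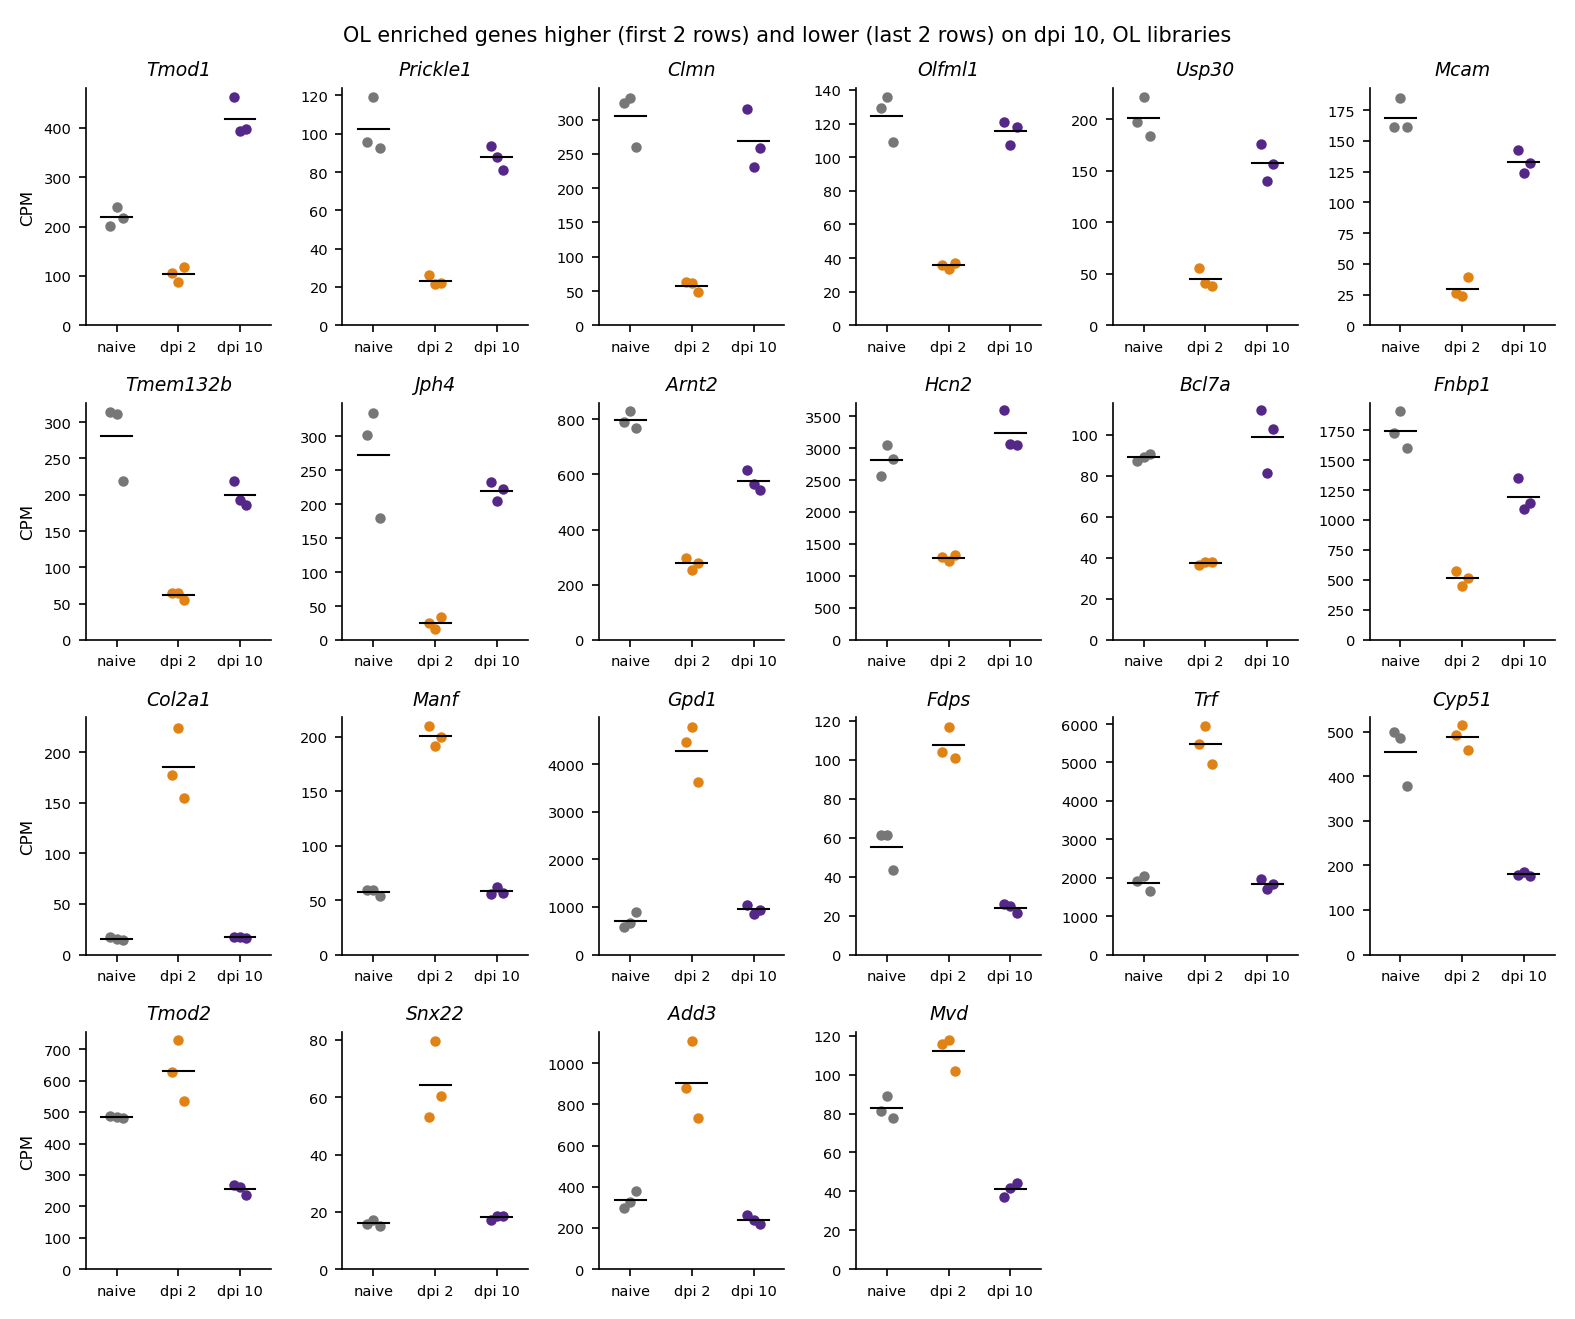
CPM in each OL library (points) with the group mean (bars) for the 12 OL enriched genes with the smallest p among those higher on dpi 10 (first 2 rows) and 10 of the 12 among those lower (last 2 rows), on axes that start at 0. The genes were picked among those whose 3 dpi 2 libraries lie apart from the 3 dpi 10 libraries. The dpi 10 level lies near naive for Col2a1, Manf and Trf, above it for Tmod1, and below it for Fdps, Cyp51, Tmod2 and Mvd.

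Myelin genes moved less. Of the 24 genes of myelin and mature OLs, 12 rose at any size of change (12.6% of all tested genes rose by that criterion) and 2 fell (11.4% of all tested genes), and the median log2 fold change was 0.36. Cnp, a myelin enzyme that binds the cytoskeleton, measured 6330, 5969 and 4961 CPM on dpi 2 and 9662, 8617 and 8337 CPM on dpi 10. The groups did not overlap and differed 1.54-fold (log2 0.62 ± 0.12 SE, adjusted p = 0.0014), and the naive libraries spanned 8629 to 11440 CPM. Mbp, the protein that compacts the membrane, rose 1.33-fold. Past 1 log2 unit were Plekhh1 at 2.42-fold and Enpp2 at 2.01-fold, the second of which was not called in 9 of 19 alternatives. The 2 that fell were Cldn11, a tight junction protein of the myelin sheath, and Mobp, a myelin structural protein. Cldn11 held 10513, 11746 and 6778 CPM on dpi 2 and 6089, 5394 and 5087 CPM on dpi 10, and its naive libraries 3133 to 4265 CPM.

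Of 15 transcription factors of the OL lineage, 8 rose and none fell by the same criterion in edgeR, with a median of 0.41. Olig2 measured 175, 146 and 194 CPM on dpi 2 and 254, 239 and 222 CPM on dpi 10 (log2 0.47 ± 0.14 SE, adjusted p = 0.019), while naive libraries held 352 to 420 CPM. Sox10 rose from 784, 648 and 713 CPM to 1061, 959 and 1022 CPM, inside its naive range of 883 to 1235 CPM. Olig2 thus stayed under its naive range on dpi 10. Among 19 markers of OL precursors and newly formed OLs, 4 were called higher (4.63% of all tested genes were) and 0 lower. Of the 19, 6 had adjusted p under 0.05 in edgeR, 5 of them higher. The 4 called were Lims2, Tnr, Gpr17 and Lhfpl3. Lhfpl3 lost its call in 8 of 19 alternatives and Gpr17 with the 9 OL libraries alone, which left 2 of the list called. Gpr17, a receptor of cells at the step before myelination, held 6.14, 3.11 and 9.84 CPM on dpi 2 and 13.9, 22.9 and 16.4 CPM on dpi 10, and it was OL depleted on dpi 10 (log2 -3.23 against total RNA).

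Among OL enriched genes that had risen acutely and then fell, Col2a1 had the smallest p. Col2a1, the chain of type II collagen known from cartilage, measured 16.9, 15.4 and 14.3 CPM in naive, 177, 224 and 155 CPM on dpi 2, and 17.5, 17.6 and 16.5 CPM on dpi 10. It fell 10.8-fold between the injured groups (log2 -3.43 ± 0.16 SE, adjusted p = 4.3e-09), and 2 of its 3 dpi 10 libraries lay just above the highest naive one. Gpd1, the cytosolic glycerol-3-phosphate dehydrogenase at the branch of glycolysis to lipid, fell 4.52-fold. Its libraries held 4471, 4779 and 3619 CPM on dpi 2 and 1046, 856 and 944 CPM on dpi 10, with naive at 571 to 887 CPM. Apod, a secreted lipid-binding lipocalin, reached 37267, 60340 and 47120 CPM on dpi 2 and 14186, 13792 and 13379 CPM on dpi 10, still above the 7577 to 7918 CPM of naive. Snx22, a sorting nexin, fell 3.57-fold to 17.2, 18.5 and 18.5 CPM. Lypla2, a thioesterase that removes palmitate from proteins, fell 3.08-fold, and at 0.30 log2 units above total RNA on dpi 2 it was not OL enriched by the threshold used.

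The 34 acute candidates named in the study's text were chosen on these samples, the dpi 2 libraries included, so their fall is not independent evidence. Of the 34, 24 were called lower and 0 higher on dpi 10, where 3.18% and 4.63% of all tested genes were. At any size 28 were lower (11.4% of all tested genes). The median log2 fold change was -1.57, against 0 over all tested genes. Serpina3n, a secreted serine protease inhibitor, stayed high while it fell: its libraries held 44.7 to 86.1 CPM in naive, 7608, 7432 and 7589 CPM on dpi 2, and 3228, 3012 and 2752 CPM on dpi 10. Klk8, a secreted serine protease, had a like course, with 315, 350 and 290 CPM on dpi 2 and 140, 114 and 107 CPM on dpi 10 for at most 0.796 CPM in naive. Steap3, a ferrireductase, went from 185, 162 and 93.7 CPM to 31.0, 34.8 and 24.9 CPM. Sphk1, which makes sphingosine 1-phosphate, and Pla2g3, a secreted phospholipase, fell 10.8-fold and 9.03-fold. Pla2g3 ended under naive, at 10.8, 9.59 and 10.1 CPM for 26.7 to 63.9 CPM in naive.

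Of 23 ER chaperones and genes of the unfolded protein response, 16 fell at any size and 6 of these by over 1 log2 unit. The median was -0.75 and 0 were called higher. Of all tested genes, 11.4% fell at any size and 3.18% by over 1 log2 unit. Total RNA fell too, with a median of -0.5 and 14 of the 23 lower at any size (5.23% of all tested genes were). In the test of the difference 4 had a lower change in OL RNA and 0 a higher one. By it 1.04% of all tested genes were lower and 1.32% higher at any size. The list median against naive was 0.31 on dpi 2 and -0.33 on dpi 10. Manf, a secreted protein induced by ER stress, measured 210, 191 and 200 CPM on dpi 2 and 55.4, 62.2 and 56.1 CPM on dpi 10, beside 54.0 to 59.5 CPM in naive. It fell 3.46-fold (log2 -1.79 ± 0.11 SE, adjusted p = 4e-08). Sdf2l1 and Creld2, both ER-resident and inducible, fell 4.44-fold and 3.43-fold to levels around naive. Hspa5, the main Hsp70 chaperone of the ER, went under naive: its libraries held 999, 951 and 702 CPM in naive, 1267, 1005 and 1049 CPM on dpi 2, and 428, 534 and 339 CPM on dpi 10. The fall of 2.55-fold (log2 -1.35 ± 0.17 SE, adjusted p = 2.7e-05) left no dpi 10 library as high as any other. Pdia6 and Xbp1 were the remaining members called.

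Of 42 genes of the integrated stress response, 22 fell at any size and 10 by over 1 log2 unit, with 0 called higher. The shares of all tested genes that fell so were 11.4% and 3.18%. Atf4 itself measured 287, 292 and 192 CPM on dpi 2 and 88.7, 83.1 and 102 CPM on dpi 10, against 72.0 to 93.8 CPM in naive (log2 -1.49 ± 0.14 SE, adjusted p = 2.2e-06). Asns, asparagine synthetase, fell 2.84-fold from 23.9, 18.4 and 24.3 CPM to 6.97, 8.11 and 8.38 CPM. Chac1, which degrades glutathione, held 9.83, 7.02 and 1.79 CPM on dpi 2 and 0.581, 0.986 and 0.986 CPM on dpi 10. Its OL dpi 2 library 3 was lower than the other 2, as it was for the ATF4 target Trib3, at 11.4, 13.7 and 1.98 CPM. Nupr1, a stress-induced nuclear protein, showed the reverse, at 24.7, 17.1 and 71.6 CPM on dpi 2, and it remained above naive on dpi 10 at 5.65 to 13.1 CPM for 0.632 to 2.10 CPM. Pycr1, of proline synthesis, fell 3.53-fold.

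Promoters of these genes were searched for letters known from this response. The 8 letters TGATGNAA, the core of an element that ATF4 and C/EBP factors bind together, were looked for on both strands in the 250 bases before each gene's start. They stood in 10 of the 34 members with a promoter in the table (29.4%), and in 2.64% of the 13035 tested genes with one. The list was put together from genes of this response, so a share above that of all genes may come from that choice. Members called and not called were not compared, so the share does not bear on the change between days. For 4 genes called lower on dpi 10 the stretch around the match is shown in the direction of the gene, with the match in capitals. Where the match lies on the other strand it reads TTGCATCA. A match is a description and not a site.
Asns, chr6:7693210-7693262, minus strand: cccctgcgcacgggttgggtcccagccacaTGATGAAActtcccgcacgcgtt
Chac1, chr2:119351019-119351086, plus strand: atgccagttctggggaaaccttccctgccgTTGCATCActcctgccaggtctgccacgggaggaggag
Nupr1, chr7:126625543-126625610, minus strand: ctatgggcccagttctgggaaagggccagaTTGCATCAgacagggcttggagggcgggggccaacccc
Pycr1, chr11:120643814-120643881, minus strand: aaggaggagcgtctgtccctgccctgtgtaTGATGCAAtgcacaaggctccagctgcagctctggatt
The sequences are from RefSeq on GRCm38.p6, the build of the counts.

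Feedback genes of fibroblast growth factor and ERK signalling had a median of -1.27. Of 19, 10 were called lower (3.18% of all tested genes were) and 0 higher. Of the 19, 8 were OL depleted on dpi 2 and 11 on dpi 10, and 6 were OL enriched on each day. Of all tested genes 28.4% and 28.2% were depleted. The part of other cells in these falls was not tested. Spry2, an inhibitor of receptor tyrosine kinase signalling, measured 136, 134 and 135 CPM on dpi 2 and 37.3, 52.5 and 35.9 CPM on dpi 10, with naive at 49.9 to 61.5 CPM. It fell 3.22-fold (log2 -1.69 ± 0.14 SE, adjusted p = 4.2e-07). Spry1 and Spry4 of the same family fell 3.01-fold and 3.75-fold, and Spred3, a related inhibitor, 5.45-fold from 20.5, 20.8 and 23.9 CPM to 4.37, 3.45 and 4.13 CPM. The ETS factors Etv4 and Etv5, known targets of this signalling, were also called lower. Etv5 ended under each naive library, at 9.52, 13.9 and 14.1 CPM for 27.1 to 57.5 CPM in naive. Dusp5 and Ptpn5, which are phosphatases that act on kinases of this group, were called lower too. The receptor Fgfr2 moved in the opposite direction, from 564, 509 and 399 CPM to 924, 842 and 937 CPM (log2 0.88 ± 0.16 SE, adjusted p = 0.00092).

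Of 16 genes of gp130 and STAT3 signalling, 4 were called lower, Timp1, Socs3, Bcl3 and Serpina3n, and 0 higher, and the median was -0.25. Of all tested genes 3.18% were called lower and 4.63% higher. Socs3, the feedback inhibitor of this pathway, measured 66.7, 89.5 and 75.1 CPM on dpi 2 and 9.06, 19.6 and 14.3 CPM on dpi 10, and at most 1.13 CPM in naive. It was thus 5.38-fold lower (log2 -2.43 ± 0.44 SE, adjusted p = 0.00076) and above each naive library. Of 28 immediate early genes, 7 were called lower, with Fosl1, Maff, Junb and Fos among them, and 1 higher, which was Arc. Of the 28, 10 were OL depleted on dpi 2 and 15 on dpi 10, and 4 and 5 were OL enriched. Of all tested genes 28.4% and 28.2% were depleted. The part of other cells in these changes was not tested. Maff, a small basic leucine zipper factor, held 12.4, 13.6 and 15.6 CPM on dpi 2 and 1.94, 3.30 and 1.86 CPM on dpi 10. Hspb1, a small heat shock protein, and Hspe1, the mitochondrial cochaperonin, were the 2 of 18 heat shock genes called lower. Hspb1 measured 258, 191 and 794 CPM on dpi 2 and 20.3, 58.7 and 18.5 CPM on dpi 10, and its highest dpi 2 library was the one with the most astrocyte marker counts. Hmox1, which breaks down heme, fell 5.29-fold from 161, 115 and 205 CPM to 28.8, 32.9 and 29.2 CPM, and Trf, transferrin, fell 2.97-fold to 1974, 1707 and 1847 CPM, within its naive range of 1652 to 2034 CPM. Nqo1, an oxidoreductase induced by NRF2 as Hmox1 is, rose 2.71-fold.

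Cytosolic ribosomal protein genes fell as a group. Of 81 tested, 79 fell at any size (11.4% of all tested genes did) and 51 of them by over 1 log2 unit (3.18%). The 2 others had no count in these OL libraries, and 0 rose. The summed level of the list was 16557 to 18266 CPM on dpi 2 and 8239 to 8711 CPM on dpi 10, against 6851 to 7343 CPM in naive. Rpl38 measured 105, 133 and 127 CPM on dpi 2 and 36.6, 33.4 and 32.3 CPM on dpi 10, and 29.8 to 34.7 CPM in naive (log2 -1.83 ± 0.11 SE, adjusted p = 5.4e-08). Rpl41 and Rps18 fell 3.14-fold and 3.07-fold. With an offset for gene length and GC content the median moved from -1.14 to -0.74 and the count called from 51 to 17. These genes are short, have many processed pseudogenes, and encode the particle that was precipitated.

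Genes of the respiratory chain and ATP synthase fell by less, at a median of -0.61. Of 76, 58 were lower at any size and 4 by over 1 log2 unit, where 11.4% and 3.18% of all tested genes were. In total RNA their median was -0.24 and 15 were lower at any size (5.23% of all tested genes). The test of the difference had 6 with a lower change in OL RNA and 0 with a higher one. By it 1.04% of all tested genes were lower and 1.32% higher at any size. Uqcrq, a subunit of complex III, held 126, 166 and 149 CPM on dpi 2 and 68.1, 73.4 and 65.1 CPM on dpi 10. With the offset for length and GC content the median was -0.18 and 1 gene was called. Without OL dpi 2 library 2, without OL dpi 2 library 3 and without OL dpi 10 library 1, 1 gene was called in each fit. Mitochondrial ribosome and proteasome genes had medians of -0.44 and -0.47. Of 31 proteasome genes 27 fell at any size, and 0 passed 1 log2 unit in edgeR. Psmb4 held 275, 313 and 274 CPM on dpi 2 and 155, 137 and 154 CPM on dpi 10. Total RNA had a proteasome median of -0.46, and 29 of the 31 fell there at any size. In the test of the difference 0 of them had a lower or a higher change in OL RNA.

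**Figure D3:**
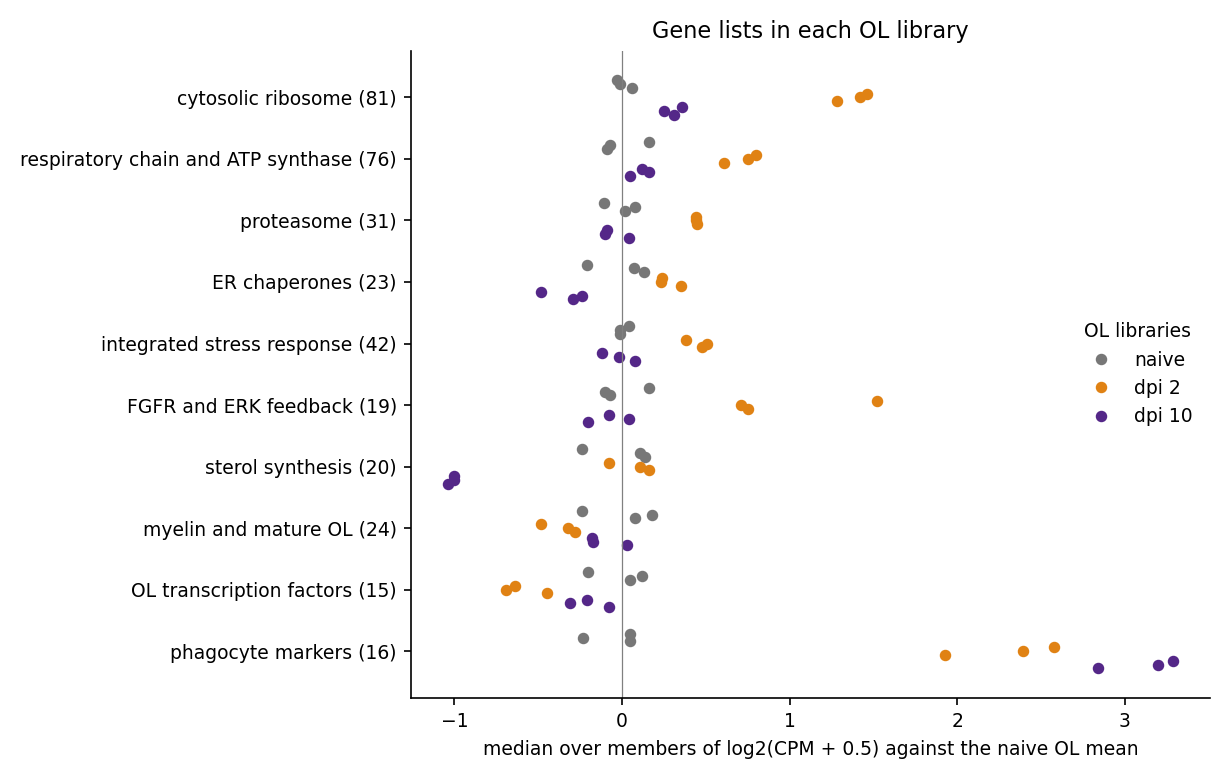
Median over the members of 10 gene lists of log2(CPM + 0.5) minus the naive OL mean, with 1 point for each OL library and the number of members in brackets. Ribosomal, respiratory chain, proteasome and integrated stress response lists lie to the right on dpi 2 and closer to 0 on dpi 10. ER chaperones lie to the right on dpi 2 and to the left of 0 on dpi 10. Sterol synthesis lies near 0 on dpi 2 and near -1 on dpi 10, and phagocyte markers lie furthest right on dpi 10.

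Enzymes of cholesterol synthesis fell after dpi 2. Of 20 enzymes, 19 were lower on dpi 10 than on dpi 2 at any size (11.4% of all tested genes were). Of these, 11 fell by over 1 log2 unit (3.18%), and 0 enzymes were higher. The median log2 fold change against naive was 0.02 on dpi 2 and -1.06 on dpi 10. Their summed level was 4663 to 5955 CPM in naive, 4828 to 6227 CPM on dpi 2 and 2460 to 2524 CPM on dpi 10. Between 10 and 12 members were called in each of the 19 alternatives run, and Ebp, Fdft1, Pmvk and Sqle each lost their call in 1 or 2 of them. Of the 15 OL enriched late falls, 12 belonged to this list or to the 8 genes of SREBP control, and the other 3 were Hspa5, Pla2g3 and Scd1, a desaturase of fatty acids that SREBP factors also induce.

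The fall spanned early and later steps of the pathway. Hmgcs1, which commits acetyl-CoA to the pathway, measured 1994, 1932 and 1535 CPM in naive, 1889, 2327 and 1351 CPM on dpi 2, and 675, 729 and 637 CPM on dpi 10. The naive and dpi 2 libraries overlapped and the dpi 10 libraries lay under both (log2 -1.45 ± 0.16 SE against dpi 2, adjusted p = 6.6e-06). Fdps, which makes farnesyl diphosphate, was the member with the steepest fall, from 104, 117 and 101 CPM to 25.7, 24.7 and 21.4 CPM, or 4.49-fold (log2 -2.17 ± 0.15 SE, adjusted p = 1.3e-07). It had been above naive on dpi 2, since naive libraries held 43.3 to 61.3 CPM. Mvd and Idi1, of the steps before Fdps, fell 2.73-fold and 2.99-fold, and the squalene enzymes Fdft1 and Sqle by a log2 value of -1.03 each. Cyp51, which demethylates lanosterol, fell from 492, 515 and 459 CPM to 178, 186 and 176 CPM, under its naive range of 378 to 499 CPM.

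In the SREBP list, 3 of 8 uptake and control genes were called lower and 0 higher, where 3.18% and 4.63% of all tested genes were. Insig1, the ER protein that retains SREBP, held 218, 252 and 161 CPM on dpi 2 and 78.9, 82.4 and 84.3 CPM on dpi 10, against 199 to 275 CPM in naive. It fell 2.57-fold (log2 -1.36 ± 0.14 SE, adjusted p = 4.9e-06), and Stard4, a carrier of sterol, fell 2.75-fold. The search for TCACNCCAC, the core of the sterol regulatory element, found it in 1 of 15 members of the synthesis list with a promoter in the table (6.67%) and in 1.29% of the tested genes with one, both strands being read. The member was Hmgcs1, shown with the match in capitals.
Hmgcs1, chr13:119690184-119690252, plus strand: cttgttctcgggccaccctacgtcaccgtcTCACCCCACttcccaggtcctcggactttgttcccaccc
No match says only that these letters are not in the 250 bases searched. The synthesis list was put together from genes of the pathway, so the share does not bear on the change between days.

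Total RNA of the same pools held the sterol fall too, with a median of -0.78 for the 20 enzymes and 19 of 20 lower at any size (5.23% of all tested genes were). The fall in OL RNA was larger than that in total RNA for 2 enzymes, Fdps and Cyp51, in the test of the difference (1.04% of all tested genes were lower by it and 1.32% higher, at any size). Of 21 genes of fatty acid and sphingolipid synthesis, Scd1 was called lower and 0 higher, with a median of -0.09. In OL RNA 3.18% of all tested genes were called lower and 4.63% higher.

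Genes of sterol export and lipoprotein handling went the other way, with a median of 0.66. Of 14, 6 were called higher (4.63% of all tested genes were) and 1 lower, Ch25h. Total RNA had the same median of 0.66, 9 of the 14 were OL depleted on dpi 10, and in edgeR's test of the difference at any size 0 had a higher change in OL than in total RNA and 1 a lower one. Abca1, which loads cholesterol onto lipoproteins, measured 23.7, 18.8 and 32.5 CPM on dpi 2 and 60.1, 64.6 and 72.1 CPM on dpi 10, above naive at 22.3 to 47.6 CPM (log2 1.39 ± 0.26 SE, adjusted p = 0.001). Abcg1, its partner in export, rose from 181, 151 and 123 CPM to 350, 316 and 297 CPM, towards naive at 324 to 400 CPM. Of these 2, Abcg1 was OL enriched on dpi 10 (log2 1.22 against total RNA) and Abca1 was depleted (log2 -1.86). Apoe, the main apolipoprotein of the nervous system, held 853, 1743 and 1897 CPM in OL RNA on dpi 2 and 5468, 6662 and 4221 CPM on dpi 10, while total RNA went from 1703, 1949 and 1921 CPM to 17015, 19584 and 15686 CPM. Microglia, macrophages and astrocytes also express Apoe and Abca1, and the part of these cells was not tested. The count of 6 was 2 with the 9 OL libraries alone, 3 with the offset for length and GC content, 4 with library sizes alone and 4 without OL dpi 10 library 1.

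Of the 139 late rises, 11 were OL enriched (7.91%), against 21.6% of all tested genes. S100a1, a calcium-binding protein, measured 167, 179 and 204 CPM in naive, 283, 295 and 268 CPM on dpi 2 and 575, 616 and 607 CPM on dpi 10. The 3 groups did not overlap, and the last step was 2.13-fold (log2 1.09 ± 0.11 SE, adjusted p = 2.6e-06). Pqlc3 rose 4.55-fold, from 6.74, 5.21 and 8.27 CPM to 34.2, 28.1 and 29.9 CPM. Foxj1, the master factor of motile cilia, rose 2.36-fold from 35.5, 37.5 and 47.2 CPM to 92.8, 98.6 and 92.6 CPM. Sspo, the secreted SCO-spondin, rose from 0.377, 1.41 and 1.98 CPM to 13.5, 11.0 and 9.82 CPM. Foxj1 and Sspo are known from ependymal cells, for which no marker list was used here.

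Ngfr, the p75 neurotrophin receptor, was also among these 11 genes. It measured 10.1, 18.1 and 8.04 CPM on dpi 2 and 46.0, 30.7 and 38.1 CPM on dpi 10 (log2 1.66 ± 0.42 SE, adjusted p = 0.0087), while total RNA held 23.8, 39.6 and 12.5 CPM and then 17.6, 5.23 and 8.55 CPM. The difference of the 2 changes was 3.03 ± 0.34 log2 units (SE, adjusted p = 0.0036). Ngfr stands in the list of Schwann cell markers, whose summed level rose as given above. In that list 1 of 11 was called higher, Ngfr, and 1 lower, Gdnf, where 4.63% and 3.18% of all tested genes were. Gdnf, a growth factor of repair Schwann cells, measured 13.3, 10.7 and 6.98 CPM on dpi 2 and 0.774, 0.0758 and 0 CPM on dpi 10.

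Markers of other cell types made up part of the rises. Of the 16 phagocyte markers, 11 were called higher and 3 lower, where 4.63% and 3.18% of all tested genes were. All 16 were OL depleted on dpi 10, with a median log2 of -3.72 against total RNA. Their summed level in OL RNA was 444 to 519 CPM on dpi 2 and 424 to 532 CPM on dpi 10, so the sum overlapped while its make-up changed. Lyz2, a lysozyme of myeloid cells, rose from 28.1, 40.0 and 28.2 CPM to 120, 136 and 106 CPM, and Gpnmb, of lipid-laden phagocytes, from 26.9, 20.1 and 21.3 CPM to 92.7, 113 and 83.1 CPM. Spp1, osteopontin, fell from 169, 243 and 218 CPM to 48.7, 81.0 and 58.3 CPM. With the 9 OL libraries alone 6 of the 16 were called higher, and 7 with the 6 compared libraries alone. Fibroblast markers had a median of 1.64, and 4 of 8 were called higher, among them Col1a1 at 24.5, 32.5 and 31.3 CPM on dpi 2 and 167, 163 and 173 CPM on dpi 10.

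C4b, a complement component, was OL enriched on both days and measured 866, 821 and 511 CPM on dpi 2 and 1790, 1522 and 1325 CPM on dpi 10, above naive at 164 to 306 CPM (log2 1.08 ± 0.24 SE, adjusted p = 0.0032). Total RNA held 190, 157 and 137 CPM and then 282, 269 and 243 CPM, and the difference of 0.38 log2 units did not pass the test (adjusted p = 0.22). Its call was lost without OL dpi 2 library 3, without OL dpi 10 library 1 and with the offset for length and GC content. In the complement list 5 of 17 were called higher (4.63% of all tested genes were) and 1 lower. The 5 became 1 without OL dpi 2 library 1 and 2 without OL dpi 10 library 2. Of 34 interferon-stimulated genes, 3 were called higher, Irf7 and Mx1 among them, and 1 lower, with a median of 0.83 in OL and 0.93 in total RNA, and the count higher was 1 without OL dpi 10 library 2, 7 without OL dpi 2 library 1 or naive library 2, 8 without naive library 3 and 6 in the DESeq2 Wald test. Irf7, a transcription factor of the interferon response, held 14.5, 12.9 and 10.5 CPM on dpi 2 and 27.5, 37.6 and 21.8 CPM on dpi 10, and its call was lost without OL dpi 10 library 2. The letters GAAANNGAA of the interferon-stimulated response element stood in 13 of 27 promoters of this list (48.1%) and in 7.63% of those of tested genes. This list too was put together from genes of the response, so the share does not bear on the change between days. MHC class II genes, 4 of 12 called higher, were OL depleted for 9 of the 12 on dpi 10, and their 4 became 1 with the 9 OL libraries alone and 2 without OL dpi 10 library 3.

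Calls in the remaining lists follow, where 4.63% of all tested genes were called higher and 3.18% lower. Of 18 glucocorticoid targets 4 were called lower and 0 higher, with Fkbp5, a chaperone that dampens the hormone's receptor, at 43.4, 123 and 59.6 CPM on dpi 2 and 26.7, 19.2 and 22.2 CPM on dpi 10. The highest value was that of dpi 2 pool 2, without which 1 of the 18 was called, as it was without OL dpi 10 library 3, and the fits without OL dpi 10 library 1 or library 2 called 2. Of 19 iron and metal genes 4 were called lower, among them Hmox1, Steap3 and Trf. In glycolysis 1 of 24 was called lower, Ldha, at a median of -0.08. The TCA cycle, MHC class I, Polycomb and axon-glia junction lists held 0 calls in edgeR, with medians of -0.21, 0.29, -0.08 and 0.15, and at any size 5, 2, 0 and 1 of their members fell and 0, 2, 1 and 5 rose. Of 20 p53 targets 1 was called lower. Microglia markers had 3 of 9 higher at a median of 0.50, endothelial markers 2 of 11 at 0.30, and lymphocyte markers 1 of 10 at 0.39. Of 12 monocyte and neutrophil markers 1 was higher and 2 lower, and of 5 erythroid markers 2 were lower at a median of -2.50. The astrocyte list had 0 of 8 called, also at any size, and the neuron list 0 higher and 2 of 14 lower at a median of -0.22.

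The change in OL RNA was set against that in total RNA of the same pools. In total RNA 190 genes were higher (1.12%) and 202 lower (1.19%) on dpi 10, and the difference of the 2 changes was called higher for 79 genes (0.466%) and lower for 53 (0.312%). These counts rested on few pools: without dpi 10 pool 1 they were 17 and 18, without dpi 10 pool 2 they were 27 and 24, and without dpi 10 pool 3 they were 25 and 30, while without dpi 2 pool 1 the lower count was 35.

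Jph4 had the largest difference of the 4 higher genes named by the rule, 2.59 ± 0.23 log2 units (SE, adjusted p = 0.0024), since its total RNA libraries went only from 63.7, 53.6 and 71.5 CPM to 88.7, 93.4 and 110 CPM. Mcam differed by 1.76 log2 units and Arsb, a lysosomal sulfatase, by 1.25. Arsb rose in OL RNA from 51.8, 45.5 and 53.2 CPM to 150, 164 and 142 CPM, and total RNA held 118, 112 and 129 CPM and then 152, 167 and 137 CPM. Gpr158, a receptor known from neurons, rose in OL RNA from 3.28, 1.86 and 4.46 CPM to 14.5, 10.1 and 13.9 CPM, while total RNA stood at 59.8 to 78.2 CPM on dpi 2 and 54.7 to 59.2 CPM on dpi 10.

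Among the genes with a lower change in OL RNA, Ctsd, a lysosomal protease, differed by -1.25 ± 0.12 log2 units (SE, adjusted p = 0.0024). Its OL level was 599, 623 and 645 CPM on dpi 2 and 556, 640 and 544 CPM on dpi 10 (adjusted p = 0.57), and its total RNA level rose from 1606, 1757 and 1564 CPM to 3505, 4361 and 3098 CPM. Slc18a3, the vesicular acetylcholine transporter of cholinergic neurons, whose gene lies within that of Chat, fell in OL RNA from 4.75, 6.50 and 7.74 CPM to 1.24, 1.78 and 1.25 CPM, and total RNA stood at 28.4 to 41.1 CPM and then 27.3 to 35.0 CPM. Vgf, a precursor of neuronal peptides, fell 7.43-fold in OL RNA from 60.0, 74.8 and 94.9 CPM, and it was OL depleted on both days. The summed level of the 14 neuron markers in OL RNA fell over the same days, as given above. Their median log2 fold change was -0.22, and at any size 2 fell and 1 rose. Rpl38 and Rps20 differed by -1.27 and -1.06 log2 units.

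Ribosomal proteins and cell cycle genes were the lists with the most members in the difference. In edgeR's test of the difference at any size, 46 of 81 ribosomal genes had a lower change in OL RNA and 0 a higher. By it 1.04% of all tested genes were lower and 1.32% higher. The list medians were -1.14 in OL and -0.42 in total RNA. Of the 81, 14 were OL depleted on dpi 2 and 59 on dpi 10, where 28.4% and 28.2% of all tested genes were. For 29 cell cycle genes the median was -0.43 in OL and -2.37 in total RNA, where 26 fell at any size. The difference was higher for 9 of the 29 and lower for 0. Of the 29, 27 were OL depleted on dpi 2 and 4 on dpi 10. The part of other cells in this difference was not tested. Mki67, a marker of dividing cells, fell from 61.8, 69.1 and 76.6 CPM to 11.0, 14.9 and 13.9 CPM in total RNA and from 5.88, 9.85 and 11.1 CPM to 3.91, 4.47 and 2.62 CPM in OL RNA, and its own difference was not past the threshold (adjusted p = 0.12). In OL RNA 3 of the 29 were called lower, against 0 with the 9 OL libraries alone, 5 without OL dpi 2 library 1 and 1 without OL dpi 10 library 1 or library 3.

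**Figure D4:**
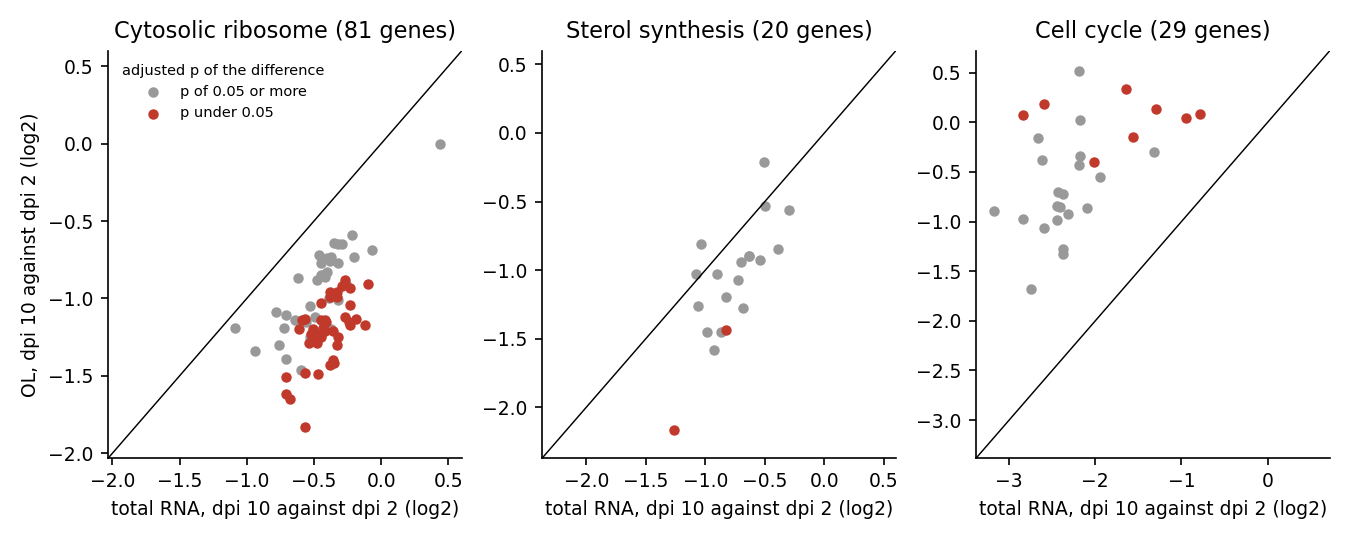
Log2 fold change from dpi 2 to dpi 10 in total RNA (horizontal axis) and OL RNA (vertical axis) for the genes of 3 lists, with red for an adjusted p of the difference under 0.05 and a diagonal for equal change. Ribosomal genes lie under the diagonal, cell cycle genes above it, and sterol genes mostly under it with Fdps and Cyp51 in red.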

How the data were processed

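Reads were mapped by the authors to GRCm38.p6 using STAR, assigned to genes by HTSeq (version 0.10.0 in the submitters' processing notes), and the raw counts were deposited without normalization. The study's own test was DESeq2. Here 18 libraries of 6 groups of 3 were fitted with edgeR 4.0.16 (R 4.3.3), using TMM scaling and the 16966 of 21965 genes with a summed count of at least 10. Genes were called past 1 log2 unit with a Benjamini-Hochberg adjusted p under 0.05 over all tested genes, two-sided. CPM use TMM-scaled library sizes. Libraries of dpi 42 were left out because the labels of 2 of them conflict. The difference between OL and total RNA used tissue pool as a block (9 pools), since both libraries of a pool share their tissue, and same-pool residuals correlated at 0.0245 to 0.138. Replicate pairs differed by more than sampling noise (median chi-square per gene 6.46 to 21.1). Scripts were tested on simulated counts. The named genes were the 12 higher and 12 lower OL enriched genes with the smallest p whose libraries did not overlap, the 5 of each direction without the enrichment condition, 4 for each time pattern, 4 of each direction in the difference, and members of the lists or genes in the study's text. Members and lists were chosen with earlier results of these data known. Whether strand was used in counting is not given in the sources used here, so overlapping genes cannot be told apart. Some genes that these rules picked are not reported here.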

Additional observations from a re-analysis of the deposited data

Results flagged for a closer look

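The change from dpi 2 to dpi 10 differed between OL and total RNA, by the test of the difference, for 79 genes in the higher and 53 in the lower direction. Among the genes named for it, the difference was 2.59 log2 units for Jph4, 2.38 for Gpr158, 1.76 for Mcam and 1.25 for Arsb. It was -2.01 for Slc18a3, -1.27 for Rpl38, -1.25 for Ctsd and -1.06 for Rps20. Outside the main measurement, the OL library of dpi 2 pool 2 held 2414 counts on Y-linked genes.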

How the results depend on the processing

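In all, 26 alternatives were run, 19 of them with a value for each named gene. Of 139 named genes 0 changed direction between the days in these 19, 102 had the same call in each and 37 had another call in at least 1. Leaving out each naive OL library was added after seeing the data and gave 787 to 862 higher genes, 552 to 602 lower genes and 35 to 38 late falls. The counts of higher genes were 373 with the 6 compared libraries alone and 396 with the 9 OL libraries alone, against 785. With the 9 OL libraries alone acute falls that were higher on dpi 10, late rises and late falls held 238, 41 and 17 genes. Leaving out 1 injured library at a time gave 666 to 1045 higher and 457 to 630 lower genes, 338 to 634 acute falls that were higher on dpi 10 (634 without OL dpi 2 library 3), 99 to 194 late rises and 31 to 60 late falls (31 without OL dpi 10 library 1). For the difference between OL and total RNA, leaving out 1 pool gave 17 to 90 higher and 18 to 62 lower genes, and the DESeq2 Wald test gave 203 and 125. In edgeR without the pool block the difference was called for 112 and 57 genes. Same-numbered libraries of dpi 2 and dpi 10 correlated at 0.0596, -0.0842 and 0.0194, so the numbers were not taken as pairs, and a replicate block gave 755 higher and 495 lower genes. The split of calls was 59.2% higher, and 47.3% with the compared libraries alone, 52.4% with the 9 OL libraries and 69.4% without OL dpi 2 library 3. The causes of these shifts were not tested.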
